A study of Mus musculus with 8 samples.

Results

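Transcripts of 9 transcription factors of the basal layer and of the foregut lineage were compared between esophageal epithelial cells with much and with little autophagic vesicle dye. The 9 genes, Trp63, Trp73, Sox2, Pax9, Pitx1, Tfap2a, Tfap2c, Foxe1 and Sox15, were chosen by name, with earlier results of these data known. All 9 were found among the 55276 gene symbols of the deposited count table and among the 17344 genes that passed the filter on low counts. The cells came from esophageal epithelium of C57BL6 mice aged 14 to 15 weeks. No engineered allele is named in the labels, whose treatment field gives only the Cyto-ID fraction. Live cells, which excluded the dye DAPI and carried integrin beta-1 at the surface, were divided by flow cytometry on the fluorescence of Cyto-ID, a dye of autophagic vesicles, into Cyto-ID Low and Cyto-ID High. The 4 animals (Female1, Female2, Male1, Male2) each gave 1 bulk library of either fraction, so each fraction has 4 libraries and the fractions share their animals. Integrin beta-1 is an adhesion receptor known from basal cells, and no further layer marker of the gate is named in the labels.

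The stratified lining of the esophagus is renewed by basal cells, which stop dividing and turn on differentiation genes as they move up. The p53 relative p63 (Trp63) is required for stratified epithelia to form and is known as the factor of their basal layer, where it controls adhesion and basement membrane genes, and its relative p73 (Trp73) binds similar DNA sites. Sox2 marks the part of the foregut that becomes esophagus and is kept in its basal cells. Pax9, Pitx1 and Foxe1 are developmental factors with a paired, a homeobox and a forkhead DNA-binding domain, the AP-2 factors Tfap2a and Tfap2c act in surface ectoderm and keratinocytes, and Sox15 is a relative of Sox2.

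For 5 of the 9 genes, with 7 start sites among them, RefSeq gives promoter sequence on GRCm38.p6, and there is no entry for Trp63, Pitx1, Tfap2c or Foxe1. The windows of the 3 factors with an entry that were lower in Cyto-ID High are shown, as the 250 bases before each start, 5′ to 3′ on the strand of the gene, to show the annotated promoters of genes whose counts fell. RefSeq starts differ from the GENCODE gene bounds given below for the same genes, and which start was in use was not tested. Sox2 is at chr3:34649745-34649994, the internal and the upstream start of Trp73 are at chr4:154097174-154097423 and chr4:154139876-154140125 on the minus strand, and Sox15 is at chr11:69654787-69655036. Capitals mark a match, on either strand, to the AP-2 motif GCCNNNGGC or to the SOX motifs CATTGT and CTTTGT.
Sox2: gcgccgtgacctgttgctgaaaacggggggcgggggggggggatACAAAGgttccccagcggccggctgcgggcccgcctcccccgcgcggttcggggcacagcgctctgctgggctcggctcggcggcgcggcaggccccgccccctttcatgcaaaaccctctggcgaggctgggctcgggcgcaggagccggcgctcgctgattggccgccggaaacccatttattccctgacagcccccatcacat
Trp73 internal start: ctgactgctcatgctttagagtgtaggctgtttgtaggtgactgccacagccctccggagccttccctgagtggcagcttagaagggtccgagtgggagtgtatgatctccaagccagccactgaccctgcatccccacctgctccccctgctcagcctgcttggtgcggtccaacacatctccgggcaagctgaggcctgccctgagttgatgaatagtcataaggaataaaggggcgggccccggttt
Trp73 upstream start: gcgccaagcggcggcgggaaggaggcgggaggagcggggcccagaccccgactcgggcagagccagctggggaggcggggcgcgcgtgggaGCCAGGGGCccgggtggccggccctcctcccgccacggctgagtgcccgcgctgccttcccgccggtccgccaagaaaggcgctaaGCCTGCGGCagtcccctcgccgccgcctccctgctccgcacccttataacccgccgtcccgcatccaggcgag
Sox15: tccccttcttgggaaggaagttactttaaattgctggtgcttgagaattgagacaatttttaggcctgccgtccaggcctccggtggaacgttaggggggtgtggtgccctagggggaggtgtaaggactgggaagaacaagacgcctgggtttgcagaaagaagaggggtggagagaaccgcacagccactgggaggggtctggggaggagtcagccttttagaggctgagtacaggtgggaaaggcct

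The Sox2 window held 1 SOX match of the CTTTGT type, and the upstream Trp73 window held 2 AP-2 matches. The windows of the internal Trp73 start and of Sox15 held no match. Of the windows not shown, that of Pax9 held 1 CATTGT match and the 2 of Tfap2a held none. Among all 32851 RefSeq windows of this length, 13.7% held the AP-2 motif, 10.7% CATTGT and 16.5% CTTTGT. The p53 family half-site, searched on both strands, was in 7.13% of all windows and in 0 of the 7. These matches describe letters only. The count table gives 1 value per gene, so the transcripts from the 2 Trp73 starts, or from the several starts of Trp63, are summed in it.

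Libraries held 26285150 to 29301054 counts. Markers of the labelled tissue were found in every library, since Krt5 of the basal layer had 12239 to 312822 counts and Krt13 of the layers above it 155193 to 1740804. All 6 basal markers were lower in Cyto-ID High (median log2 fold change −3.10) and all 6 suprabasal markers higher (3.4). Itgb1, which encodes the gated surface protein, was at 370 ± 32 CPM (TMM-scaled counts-per-million; SD, n = 4) in Low and 68.2 ± 18.2 in High. Fewer cells of a layer and less RNA per cell cannot be told apart in bulk libraries, and this holds for every factor below. Over all genes tested 48.7% differed between the fractions, 25.3% lower and 23.4% higher in High (edgeR, quasi-likelihood; threshold 0.05 on the Benjamini-Hochberg adjusted p). Against that background 6 of the 9 factors differed, 4 lower and 2 higher, and 3 did not pass. The median log2 fold change was 0.11 over the 9 factors, which is the value of Tfap2c, and −0.09 over all genes tested. That value of Tfap2c ran from −0.02 to 0.21 with 1 library left out and was −0.47 with libraries scaled by total counts.

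**Figure D1:**
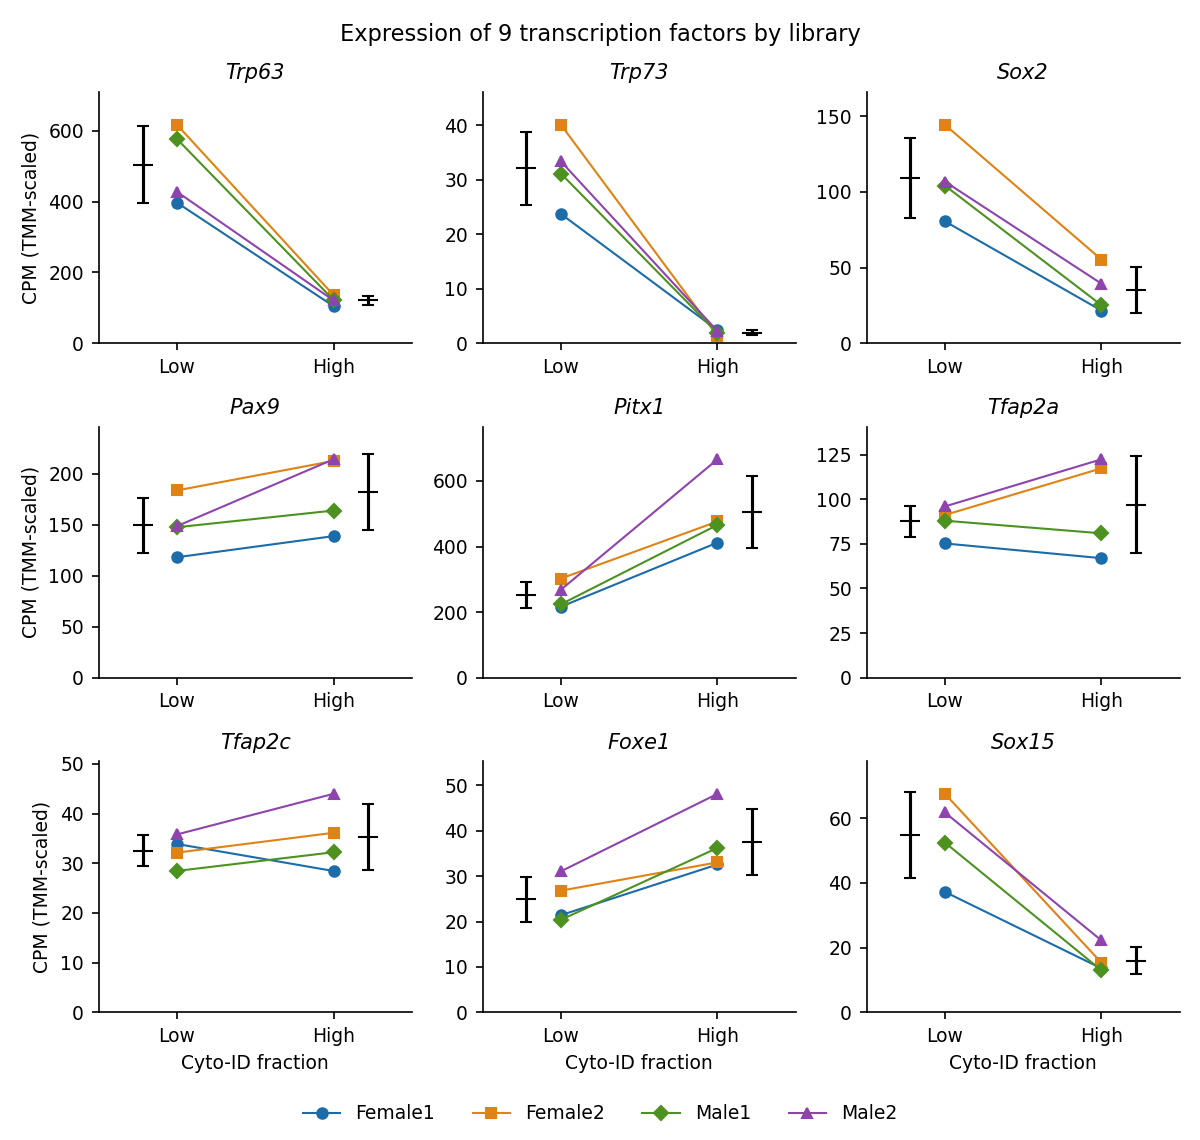
TMM-scaled counts-per-million, CPM (vertical axis, from 0) of each of the 9 factors in Cyto-ID Low and High, with 1 symbol and colour per animal, a line joining its libraries, and the mean ± SD of the 4 libraries beside them. Trp63, Trp73, Sox2 and Sox15 are lower in every High library than in any Low library, Pitx1 and Foxe1 are higher, and the groups overlap for Pax9, Tfap2a and Tfap2c.

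The p53 family members fell in Cyto-ID High. Trp63, which lies at chr16:25683763-25892102 on GRCm38, was at 397, 617, 577 and 428 CPM in the Low libraries of Female1, Female2, Male1 and Male2, and at 105, 136, 122 and 121 CPM in their High libraries. All 4 High libraries were below all 4 Low libraries, a separation that 24.9% of the genes tested showed in this direction. The log2 fold change was −2.06 (SE 0.20, edgeR adjusted p 3.181e-05), which is 4.18-fold lower, and it was negative in 4 of 4 animals. The High libraries still held 2350 to 3203 counts of Trp63 each, so the transcript was reduced and not lost.

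Trp73, at chr4:154056253-154140208, gave the largest change of the 9 factors under each scaling and with each library left out. It was at 23.7, 40.1, 31.1 and 33.4 CPM in Low and at 2.39, 1.31, 1.87 and 2.21 CPM in High, in the same order of animals. The groups did not overlap, and the animal with the highest Low library, Female2, had the lowest High library. The log2 fold change was −4.04 (SE 0.25, edgeR adjusted p 1.268e-05), or 16.5-fold lower, and only 0.213% of the genes tested had a more negative one. The High values rest on 30 to 62 counts per library, against 768 to 1458 in Low. Exons of the antisense gene Trp73os share 5.06% of the exon bases of Trp73, and strandedness of the counting is not given in the sources used here.

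Since the ratio of a pair of genes within a library does not depend on how libraries are scaled, the balance within each family was compared too, with 0.5 added to each count. The value of Trp63 was 16.7, 15.4, 18.5 and 12.8 times that of Trp73 in the Low libraries of Female1, Female2, Male1 and Male2. In their High libraries it was 43.4, 102, 64.7 and 54.0 times. Each High ratio was above every Low ratio, and the mean log2 ratio moved from 3.97 ± 0.22 to 5.97 ± 0.53 (SD, n = 4 each), a difference of 2.00. The two-sided exact permutation test over the 8 libraries gave p = 0.02857, the smallest that 4 against 4 allows, and 0.08571 after Benjamini-Hochberg adjustment over the 3 ratios examined, which did not pass. Among 3 ratios, 1 at this smallest p cannot pass unless another is also at it, so the adjusted value could not decide. The permutation test did not use the pairing of libraries by animal, and an exact test within 4 animals could not reach 0.05. The ratio was higher in High in 4 of 4 animals.

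**Figure D2:**
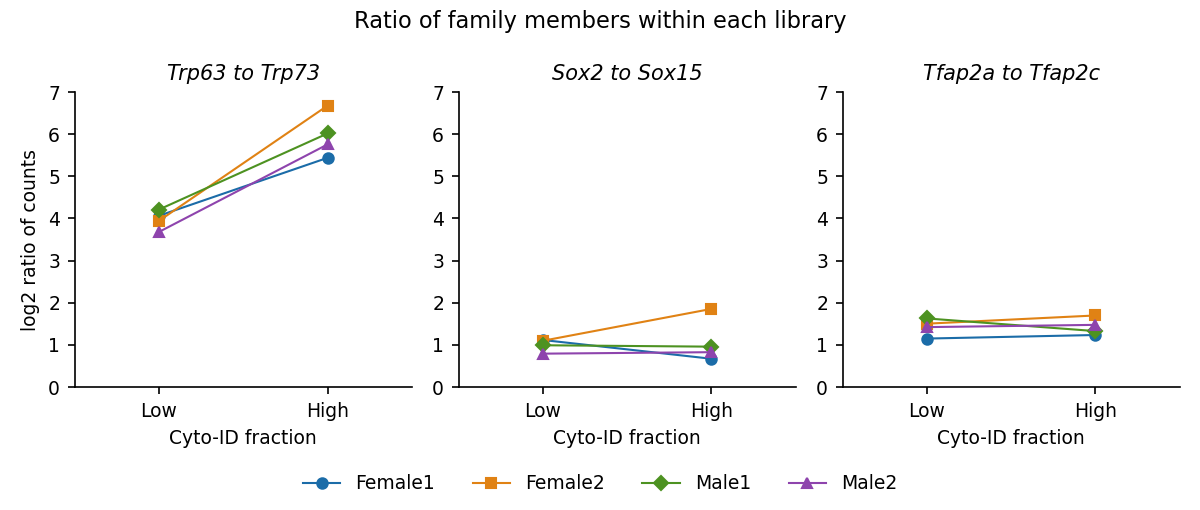
Log2 ratio of the counts of 2 family members within each library (vertical axis, with a prior count of 0.5) for Cyto-ID Low and High, 1 colour per animal. The Trp63 to Trp73 ratio is higher in High in 4 of 4 animals, while the Sox2 to Sox15 and Tfap2a to Tfap2c ratios overlap between fractions.

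The SOX factors were lower in Cyto-ID High as well. Sox2, at chr3:34650405-34652461, was at 80.6, 144, 104 and 107 CPM in the Low libraries of Female1, Female2, Male1 and Male2 and at 21.6, 55.3, 25.1 and 39.4 CPM in High. Its groups did not overlap, and Female2 was the highest library in either fraction. The log2 fold change was −1.63 (SE 0.30, edgeR adjusted p 0.001586), or 3.10-fold lower. Female2 also held transcripts of gastric epithelium, with a sum over 7 gastric markers of 113 CPM in High and 17.5 CPM in Low, where the other 6 libraries had 0.211 to 1.03. Without the High library of Female2 the Sox2 change was −1.97 (edgeR adjusted p 0.001037), and without both of its libraries −1.76 (0.0009363).

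Sox15, at chr11:69655314-69656727, was at 37.2, 67.5, 52.4 and 61.7 CPM in Low and 13.5, 15.3, 12.9 and 22.2 CPM in High. The groups did not overlap, and the change of −1.78 (SE 0.23, edgeR adjusted p 0.0001666) made it 3.44-fold lower. Sox2 had 2.17, 2.14, 1.99 and 1.73 times the value of Sox15 in Low, by the same ratio, and 1.59, 3.61, 1.94 and 1.77 times in High. This ratio differed by 0.08 on the log2 scale (two-sided exact permutation p = 0.9143, adjusted 0.9714), with the 4 High values spread around the Low ones. Without the High library of Female2 the difference was −0.18. The exons of Sox15 share 3.6% of their bases with Mpdu1 on the other strand.

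Pitx1 and Foxe1 went the other way. Pitx1, a homeobox factor at chr13:55825051-55836192, was at 217, 302, 224 and 268 CPM in Low and 412, 476, 466 and 666 CPM in High. Every High library was above every Low library, which 23.6% of the genes tested also showed, and the log2 fold change was 0.99 (SE 0.20, edgeR adjusted p 0.002291), or 1.98-fold higher. Foxe1, a forkhead factor at chr4:46343609-46346412, was at 21.4, 26.8, 20.4 and 31.1 CPM in Low and 32.6, 33.0, 36.2 and 48.2 CPM in High. The groups did not overlap here either, and the change was 0.58 (SE 0.18, edgeR adjusted p 0.02082), or 1.49-fold higher. In raw counts both genes overlapped between the fractions. Pitx1 held 7012 to 10999 counts in Low and 10674 to 12945 in High, and Foxe1 656 to 1029 and 759 to 950. In CPM, Male2 had the highest High library of both genes. The Foxe1 call was lost when the Low library of Female1 (edgeR adjusted p 0.06324), the Low library of Male1 (0.0603) or the High library of Male2 (0.05817) was left out.

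Pax9 and both AP-2 factors did not pass. Pax9, a paired-domain factor at chr12:56691767-56712822, was at 118, 183, 147 and 148 CPM in Low and 139, 212, 164 and 214 CPM in High. It was higher in High in 4 of 4 animals, but the groups overlapped, and the log2 fold change was 0.29 (SE 0.20, edgeR adjusted p 0.271). Tfap2a, at chr13:40715302-40738376, was at 75.2, 91.1, 87.9 and 95.9 CPM in Low and 67.0, 117, 80.9 and 122 CPM in High. The animals split, with Female2 and Male2 higher in High and Female1 and Male1 lower, and the change was 0.15 (SE 0.20, edgeR adjusted p 0.6041). Tfap2c, at chr2:172549593-172558622, was at 33.9, 32.1, 28.5 and 35.8 CPM in Low and 28.4, 36.1, 32.2 and 44.0 CPM in High. It was higher in 3 of 4 animals, and the fitted log2 fold change was 0.11 (SE 0.16; adjusted p 0.6284 in edgeR). Their ratio, Tfap2a to Tfap2c, was 2.22 to 3.09 in Low and 2.35 to 3.24 in High, a difference of 0.01 on the log2 scale (two-sided exact permutation p = 0.9714 before and after adjustment).

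Beside Trp73 and Sox15, 4 of the factors have exons that overlap other genes. Pitx1 shares 4.07% of its exon bases with the same-strand Gm28760 and 6.21% with the antisense Gm47071. Tfap2a shares 7.75%, 5.4% and 1.49% with the antisense genes Gm26688, Gm47061 and Gm47067. Pax9 shares 3.74% with Slc25a21 on the other strand, and Foxe1 3.64% with Gm12446. Trp63, Sox2 and Tfap2c share none, in GENCODE release M21.

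The scaling of the libraries bears on the higher and the undecided factors but not on the direction of the 4 that fell. With totals alone as the scaling factors, the log2 fold changes of the genes tested moved by a median of −0.56, and of all genes called 20.5% were higher in place of 48%. In that fit 6 of the 9 factors were lower and 0 higher. Trp73 changed by −4.60, Trp63 by −2.63, Sox15 by −2.38 and Sox2 by −2.25. Pitx1 was at 0.40 (edgeR adjusted p 0.05302) and Foxe1 at 0.00 (0.9824), so neither was called. Pax9 turned to −0.30 (0.1423) without passing, while Tfap2a at −0.45 (0.025) and Tfap2c at −0.47 (0.006081) were called lower. Under RLE size factors, with the animal as a block and in DESeq2 and limma-voom, 4 factors were lower and 2 higher, as with TMM. The order of the 9 fold changes from Trp73 to Pitx1 is the same in all 3 scalings.

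**Figure D3:**
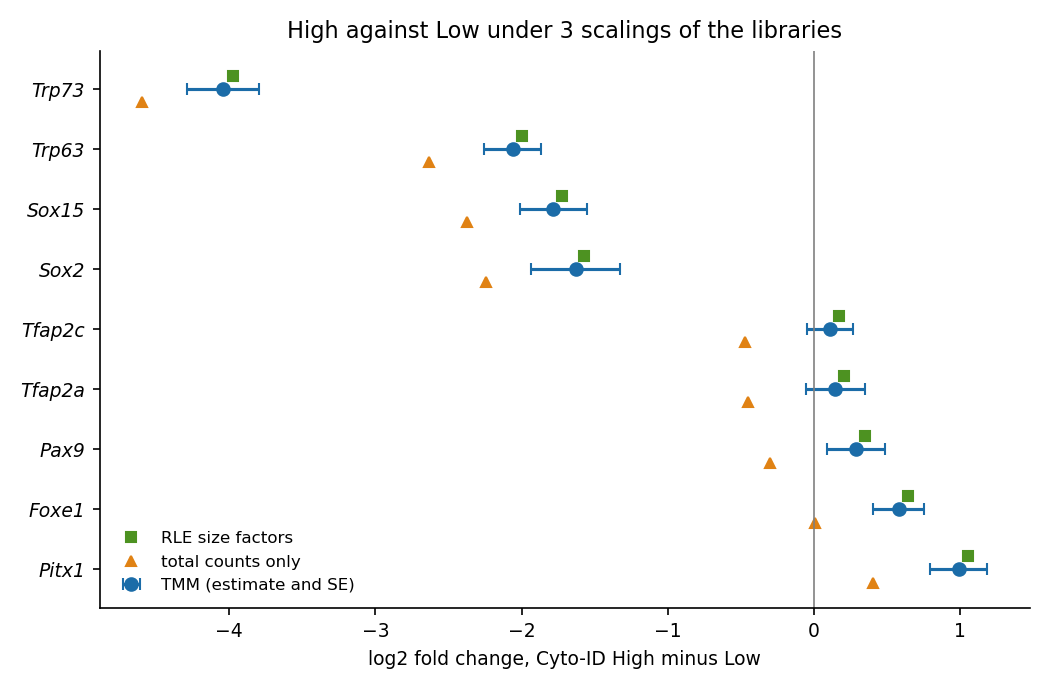
Log2 fold change of Cyto-ID High minus Low (horizontal axis) for the 9 factors under TMM scaling, with its standard error, and as estimates under RLE size factors and total counts only. Trp73, Trp63, Sox15 and Sox2 lie below 0 under all 3 scalings, whereas Pax9, Tfap2a and Tfap2c change side under total counts.

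Per kilobase of exon the order of the levels differed between the fractions. In Cyto-ID Low, Pitx1 was highest at 95.2 ± 15.1 CPM per kb (SD, n = 4), followed by Sox15 at 63.5 ± 15.4, Trp63 at 60.1 ± 12.9 and Sox2 at 53.0 ± 12.8. Sox15 and Trp63 changed places between libraries (Sox15 was above Trp63 in 2 of 4), and Trp63 was above Sox2 in 3 of 4, so neither of these neighbours differed beyond the spread, while Sox15 was above Sox2 in 4 of 4. Pax9 at 29.5 ± 5.3 and Tfap2a at 17.9 ± 1.8 came next. Foxe1 at 8.88 ± 1.77 and Tfap2c at 8.85 ± 0.85 did not differ beyond their spread, and Trp73 was lowest at 5.80 ± 1.22.

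In Cyto-ID High, Pitx1 was again first at 190 ± 42 CPM per kb, above Pax9 at 36.0 ± 7.4 in 4 of 4 libraries. Tfap2a at 19.8 ± 5.5, Sox15 at 18.6 ± 4.9, Sox2 at 17.2 ± 7.5, Trp63 at 14.4 ± 1.5 and Foxe1 at 13.4 ± 2.6 formed a run in which no neighbour was above the next in all 4 libraries. Tfap2c was at 9.57 ± 1.81 and Trp73 at 0.351 ± 0.086. Exon lengths are the union of all annotated exons in GENCODE M21, which overstates the length of genes with many alternative exons such as Trp63 (8391 bases) beside Sox15 (861 bases).

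Relatives of the 9 factors from the same families showed changes in either direction. Of 32 relatives 14 were tested, of which 6 were lower, 2 higher and 6 not called, beside 25.3% lower and 23.4% higher over all genes tested. Their median of −0.29 (−0.09 over all genes) was −0.12 without Low Male2, −0.82 without High Male1 and −1.40 among relatives with at least 10 counts in every library, with 6 lower and 2 higher in each of these fits. With no filter on low counts the median was 0.02, with 7 lower and 2 higher. Sox4, a factor of progenitor cells, fell from 132 ± 19 CPM to 10.2 ± 1.5 CPM (means with SD over 4 libraries), which is −3.70 on the log2 scale (SE 0.18). The AP-2 factor Tfap2e changed by −2.74 (SE 0.25), Sox21, a SoxB factor, by −1.64 (SE 0.16) and Trp53, which encodes p53, by −1.37 (SE 0.18), the last from 97.8 ± 7.7 to 38.2 ± 11.1 CPM. Sox13 rose from 13.5 ± 2.8 to 76.5 ± 20.6 CPM, or by 2.49 (SE 0.23), and Sox7 from 8.80 ± 1.44 to 35.2 ± 11.3 CPM, or by 2.00 (SE 0.25). Sox6 at −1.20 and Sox12 at −1.92, the other two that fell, are outside the naming rule and were added after their values were seen. Sox9, known from other endodermal progenitors, was at 106 ± 50 and 110 ± 43 CPM (0.08, edgeR adjusted p 0.8921). These 8 calls had the same direction under all 3 scalings. None of the other 8 Pax genes passed the filter, with 0 to 22 counts over all libraries, so Pax9 was the only Pax gene tested.

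Regulators of the p53 family were mixed. Of 12 genes all 12 were tested, with 5 higher, 4 lower and 3 not called, beside 23.4% higher and 25.3% lower over all genes tested. With 1 library left out 6 to 10 of the 12 were called, and Wwp1 (0.48, adjusted p 0.07193 in edgeR), named after its values were seen, was called higher under RLE size factors and with the animal as a replicate block. Ppp1r13b and Ppp1r13l, members of the ASPP family of p53 binding proteins, rose by 1.57 (SE 0.18) and 0.93 (SE 0.20) on the log2 scale. The ubiquitin ligase genes Itch and Mdm2 rose by 0.60 (SE 0.17) and 0.51 (SE 0.18). Abl1, a tyrosine kinase, changed by −1.36 (SE 0.17), Mdm4, the partner of Mdm2, by −0.54 (SE 0.16) and Fbxw7, a substrate receptor of a ubiquitin ligase, by −0.42 (SE 0.14), a call that RLE size factors did not give (−0.35). Stxbp4, whose product binds and stabilises the truncated form of p63, changed by −2.56 (SE 0.23, from 6.64 to 1.11 CPM); it is outside the naming rule and was added after its values were seen. Under total counts 1 gene of the list was higher and 6 lower, with Mdm2 at −0.05, Itch at 0.02 and Ppp1r13l at 0.34 (adjusted p 0.0508 in edgeR), none of them called.

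The 4 tested cofactors of AP-2 were all higher, where 23.4% of all genes tested were. Cited4 and Cited2, coactivators of AP-2, rose by 3.69 (SE 0.42) and 2.55 (SE 0.30), with Cited2 going from 27.1 ± 9.0 to 158 ± 49 CPM. Kctd1 and Kctd15, which inhibit AP-2, rose by 1.37 (SE 0.26) and 0.52 (SE 0.19). Kctd15 had an edgeR adjusted p of 0.04859 and under total counts was at −0.07, where the other 3 stayed called. The list had 4 genes higher without High Female1 or without Low Female2, and 3 higher without any 1 of the other 6 libraries. Cited1, with 54 counts in all, was not tested.

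Genes known as targets of p63 in stratified epithelium changed in either direction. Of 38 genes 37 were tested, with 15 lower, 9 higher and 13 not called (median −0.34), beside 25.3% lower and 23.4% higher over all genes tested, and 5 of them are also among the basal markers above. The largest decreases were in adhesion and basement membrane genes and a Notch ligand. Lamb3, a laminin-332 chain, fell from 464 ± 56 to 30.1 ± 13 CPM (SD, n = 4 each; −3.96, SE 0.29), Col17a1, a hemidesmosomal collagen, changed by −3.86 (SE 0.32), the Notch ligand Jag2 by −3.74 (SE 0.24) and the integrin gene Itgb4 by −3.62 (SE 0.27). The largest increases were in Dlx5, a homeobox gene (3.42, SE 0.40), Cdkn1a, a cell cycle inhibitor (2.12, SE 0.26), Dlx3, a homeobox gene of differentiating keratinocytes (1.96, SE 0.30), and Zfp750, a factor of terminal differentiation (1.83, SE 0.23). These 8 calls had the same direction under all 3 scalings. Under total counts 8 genes of the list were higher and 20 lower. The median moved to −0.01 without the High library of Male2, with 9 genes higher and 16 lower, and to 0.03 without both libraries of Male2, with 9 higher and 15 lower.

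**Figure D4:**
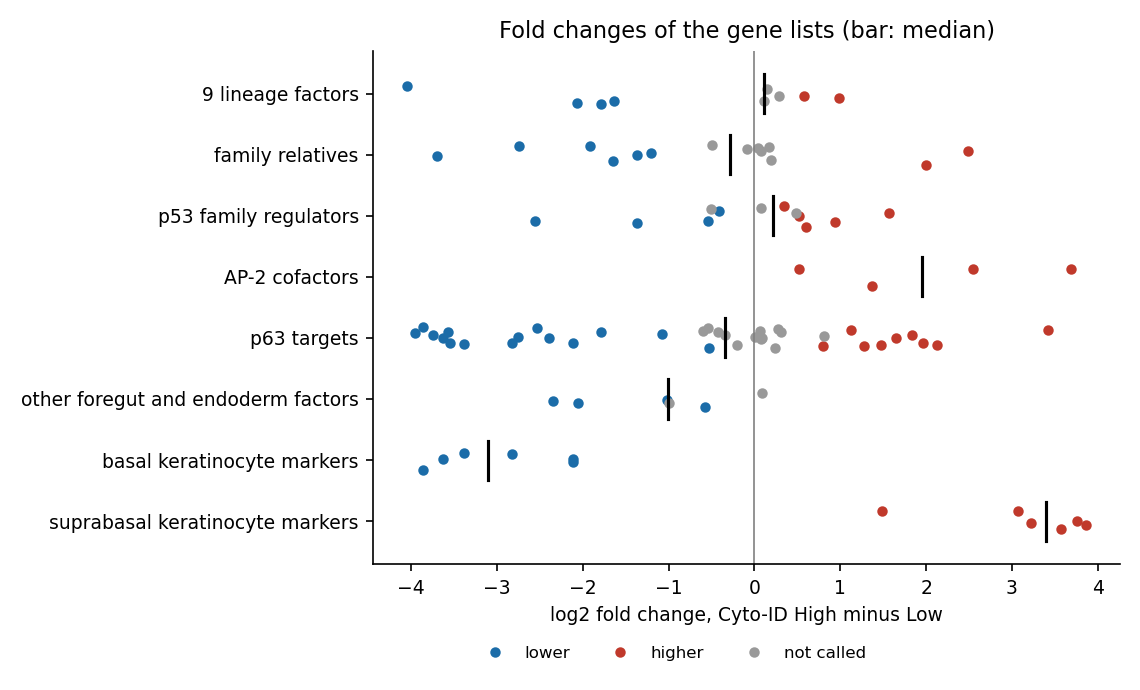
Log2 fold change of Cyto-ID High minus Low (horizontal axis) for each tested gene of the 9 factors, of 5 related lists and of the basal and suprabasal markers, coloured by call, with a bar at the median of each list. The p63 targets spread to either side of 0, the AP-2 cofactors lie above 0, and the tested foregut factors are lower or not called.

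Other foregut and endoderm factors were largely absent. Of 20 genes 6 were tested, with 4 lower, beside 25.3% over all genes tested, and 2, Isl1 and Gata6, not called. Gata6 (−0.99, adjusted p 0.08381 in edgeR) was called lower with the animal as a replicate block and under total counts. Tbx1, a T-box factor of the pharynx, fell from 20.9 ± 2.8 to 4.14 ± 0.50 CPM (SD, n = 4 each; −2.34, SE 0.16) and Foxa1, a forkhead factor of endoderm, from 163 ± 25 to 39.3 ± 15.0 CPM (−2.06, SE 0.22). Osr2 changed by −0.58 (SE 0.14), and Tbx1, Foxa1 and Osr2 were lower under all 3 scalings. Nkx2-1, the factor of the respiratory and thyroid part of the foregut, had 1 count over all libraries, and the intestinal factors Cdx1 and Cdx2 had 0 and 2.

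Some of the 9 factors are also known from other cells, such as Tfap2a from melanocytes and Sox2 from glia, so markers of those cells were measured. The 5 melanocyte markers summed to 6.33 to 9.37 CPM in Low and 1.39 to 9.29 CPM in High, and 1 of 5 was lower. The 5 glial markers summed to 4.90 to 7.08 CPM in Low and 0.668 to 11.0 CPM in High, with 3 tested and 0 called. Leukocyte markers summed to 46.9 to 79.0 CPM in Low and 8.23 to 78.6 CPM in High (1 of 5 tested was higher), fibroblast markers to 308 to 479 and 36.6 to 455 CPM (1 of 6 lower), endothelial markers to 11.5 to 22.8 and 2.16 to 27.5 CPM (0 of 6) and muscle markers to 31.2 to 51.6 and 4.88 to 43.4 CPM (1 of 6 lower). The lowest value of each of these 6 lists was in the High library of Male2, and the next lowest in that of Female2. Tfap2a was higher in High in these same animals. With 1 library left out the single called leukocyte marker was lost in 4 of 8 fits (and under total counts), the muscle marker in 3 and the melanocyte marker in 2, and the fibroblast list kept 1 call in each. No marker of these lists was at 0 over all libraries. Their part in the results was not tested. With both libraries of Male2 left out, 4 of the 9 factors were lower and 2 higher, and the same counts were found with both libraries of Female2 left out.

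The factors were also read for a dependence on sex. In a fit with the product of sex and fraction, 0 of 17344 genes were called (0%; edgeR, threshold 0.05). Before adjustment 19 genes had a p under 0.05, and 0 of the 9 factors were among them. These 19 genes are far below the share of 0.05 of all genes that would pass if none differed by sex. The absence of the 9 factors from so few genes therefore carries no weight. The male minus female difference of the High against Low change ran from −0.16 for Sox2 (SE 0.64) to 0.43 for Pitx1 (SE 0.40). With 2 animals of each sex these standard errors, from 0.34 to 0.64, leave differences of that size undetectable.

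For each factor the 2 genes with the most similar profile over the 8 libraries were read from 10007 genes with a mean of at least 5 CPM, by the Pearson correlation of log2 CPM. The libraries form 2 fractions from shared animals, so for the 6 factors that differed these values include the step between fractions, and they carry no p. Rhobtb2 (r = 0.998) and Zfp422 (0.996) were most like Trp63, Dcps (0.999) and Ankrd29 (0.998) most like Trp73, Rab11fip2 (0.999) and Tbc1d4 (0.995) most like Sox2, and Ormdl3 (0.997) and Cbs (0.997) most like Sox15. For Pitx1 they were Rab40c (0.996) and Mast3 (0.995), and for Foxe1 Nomo1 (0.984) and Bad (0.983). For Pax9 they were Gatc (0.990) and Exoc2 (0.980), for Tfap2a Ube2l3 (0.981) and Gnaq (0.980), and for Tfap2c Bcorl1 (0.964) and Pygo2 (0.939). A similar profile can come with a different size of change: Dcps changed by −1.75 and Ankrd29 by −3.54 on the log2 scale, beside −4.04 for Trp73.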

How the data were processed

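For the 8 libraries the authors deposited a single file of raw counts, 1 row a gene symbol, whose whole-number values and unequal totals identify the unit. STAR 2.7.3, DESeq2 and GRCm38 are named, without a role, per the submitters' processing notes; the counting tool, annotation and strandedness are not given in the sources used here. Each column name gave animal and fraction, as Negative for Low and Positive for High. The analysis used edgeR 4.0.16 under R 4.3.3: filterByExpr by fraction, TMM scaling, and glmQLFit and glmQLFTest with sex as covariate over all 8 libraries, adjusted over all genes (Benjamini-Hochberg, 0.05). Log2 CPM used a prior count of 2. Standard errors were derived from the fold change and F statistic.

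Named genes were the 9 factors and, per list and direction, at most 4 called genes with the largest change, an average level of 5 CPM or more and 1 direction in all 4 animals. Some called genes of the lists are counted but not reported here by name. The factors and lists were chosen with earlier results of these data known. Libraries were paired by animal name; across genes, deviations from the fraction means correlated at 0.43 (Female1), 0.32 (Female2), −0.02 (Male1) and 0.28 (Male2), and at −0.37 to 0.35 between different animals. Alternatives were RLE, total counts, other filters, DESeq2 1.42.0, limma-voom (limma 3.58.1), no covariate, the replicate block, left-out libraries and, chosen after seeing the data, left-out animals. Loci and exons came from GENCODE M21, promoters from RefSeq.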

Additional observations from a re-analysis of the deposited data

Results flagged for a closer look

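Dixon's test was applied to the extreme library of 42 groups of 4 libraries, covering the 9 factors, the 3 family ratios and the 9 lists of cell markers. Chance singles out about 1 in 20 such groups. There were 2 singled out, both the summed gastric markers of Female2, at 113 CPM in Cyto-ID High (112.66) and 17.5 CPM in Cyto-ID Low. In the other animals the sum was 0.347 to 1.03 CPM in High and 0.211 to 0.462 CPM in Low. No gastric marker passed the filter on low counts. None of the 9 factors was singled out in either fraction. The Sox2 to Sox15 ratio in the High library of Female2, 3.61 against 1.59 to 1.94 in the other three, came close, with a gap of 0.827 of the range, just under the critical value.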

How the results depend on the processing

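Trp63, Trp73, Sox2 and Sox15 kept their direction and their call in all 18 alternatives. Their fold changes ran from −2.63 to −1.91 for Trp63, −4.60 to −3.73 for Trp73, −2.25 to −1.42 for Sox2 and −2.38 to −1.57 for Sox15. Pitx1 lost its call under total counts (0.40, adjusted p 0.05302) and Foxe1 under total counts (0.00) and in 3 of the 8 fits with a library left out (0.43 to 0.69 over all 8). Total counts, which leave the share of abundant genes uncorrected, turned Pax9 to −0.30, Tfap2a to −0.45 and Tfap2c to −0.47. Tfap2a was −0.035255 without High Female2 (−0.04 to 0.29 over the left-out libraries) and Tfap2c −0.016659 without High Male2 (−0.02 to 0.21), and neither passed. Of the family ratios, left-out libraries turned Sox2 to Sox15 (−0.18 to 0.21) and Tfap2a to Tfap2c (−0.084 to 0.075), and the cause was not tested. With the animal as a replicate block 9336 genes were called, 8393 of them among the 8440, and of the 9 factors 4 were lower and 2 higher, so the pairing changed no call of a factor. Over the other settings the number of genes called ran from 7269 without Low Male1 to 10708 under total counts. The interaction with sex called 0 genes in every setting tried, with 17 to 1197 at an unadjusted p under 0.05, the most without High Male1. Depth limits Trp73 most, at 30 to 62 counts in the High libraries.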

Other observations

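Sox2ot, the long non-coding transcript whose gene surrounds Sox2, was looked at after the values of Sox2 had been seen. It had 47 to 76 counts in the Cyto-ID Low libraries and 9 to 16 in the High libraries, so the groups did not overlap. Its log2 fold change was −1.70 (SE 0.31, edgeR adjusted p 0.001527), beside −1.63 (SE 0.30) for Sox2. In GENCODE M21 the exon of Sox2 overlaps no exon of another gene.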
